A study of Homo sapiens with 12 samples.

Results

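The comparison described here is high-fat medium against growth medium after 12 hours in Sk-hep1 cells, taken across all genes on the array. Its members are the 3 arrays titled for high-fat medium and the 3 titled for growth medium at 12 hours, 6 of the 12 arrays in the series. The other 6 arrays hold the same 2 media at 24 hours. Each of 19775 genes was represented by the probe set with the highest mean over the 12 arrays. Of these, 13130 genes reached log2 4 on at least 3 arrays and were tested, and the other 6645 were not tested. All levels and changes below are on the log2 scale of the deposited GCRMA values, changes are high-fat minus growth medium, and a rise of 1 is a 2-fold rise. The level and change given for a gene are those of this brightest probe set, unless others are named.

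Sk-hep1 is an established human line that the labels place in liver, from ascites, as an adenocarcinoma of endothelial cell type. Growth medium (GM) was based on DMEM and high-fat medium (HFM) on DMEM/F12, so the basal medium differed along with the fat, and the effects of the 2 cannot be told apart. The labels do not name the fat, and all cultures had first been grown in DMEM with fetal bovine serum. Nothing in the labels says whether the replicates came from separate cultures. The p-values therefore measure the spread between these arrays, which may be technical. The design asks what a high-fat environment does to the transcriptome of these cells, and the earlier time point gives its first hours.

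The cell type label was checked against marker genes. Of 18 endothelial markers on the array, 6 reached log2 4 on all 6 arrays, namely ENG, ROBO4, EGFL7, FLI1, NOS3 and FLT1. ENG, which is also in the mesenchymal list, was the highest of them in GM, at 7.69. Another 9 reached log2 4 on no array, among them CDH5, VWF, KDR, TEK and ERG. The summed level of the endothelial list lay between 77.4 and 78.3 in GM and between 71.5 and 72.2 in HFM. Of 16 mesenchymal markers, 15 reached log2 4 on all 6 arrays, with VIM between 13.53 and 13.64. Of 15 hepatocyte markers 9 were below log2 4 on all arrays, ALB included, and of 10 leukocyte markers 5 were, PTPRC included. The epithelial keratins KRT8 and KRT18 were above log2 12 on all 6 arrays while CDH1 and EPCAM stayed below 4, and the summed level of the 16 epithelial markers was between 104 and 105 in GM and between 99.8 and 100.3 in HFM. Summed levels were lower in HFM in every other list too. They were 55.2 to 56.0 in GM and 53.9 to 54.1 in HFM for hepatocyte markers, and 39.6 to 40.3 and 36.6 to 37.5 for leukocyte markers. For mesenchymal markers they were 129.7 to 130.1 and 128.9 to 129.4. These sums include markers that reached log2 4 on no array. In these lists 5 of 9 tested endothelial markers were called lower in HFM and 0 higher, 6 of 11 epithelial lower and 2 higher (1 without GM replicate 1), 3 of 4 leukocyte lower and 0 higher, 1 of 6 hepatocyte each way (0 higher and 1 lower without GM replicate 2 or HFM replicate 2, 0 and 2 without HFM replicate 1) and 4 of 15 mesenchymal each way. Over all genes tested 33% were called lower and 28.9% higher. Among genes averaging under log2 6, where several of these markers lie, the shares were 36.3% and 13.9%. In bulk RNA fewer cells of a type and less RNA per cell cannot be told apart, and the part of these markers in the results below was not tested.

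HFM replicate 1 stood apart from the other HFM arrays. Its mean correlation across genes with its own group was 0.992 against 0.995 for replicates 2 and 3, and GM arrays reached 0.998. The 14 hybridisation control probe sets, which detect transcripts added to the hybridisation and not made by the cells, averaged 9.86 ± 0.02 (SD, n = 3) in GM, and 9.81, 9.60 and 9.65 on the 3 HFM arrays. The exact two-sided permutation p of that difference was 0.1, the smallest that 3 against 3 arrays allow. For ACTB the 3'-end minus 5'-end level, a measure of RNA integrity, was 0.69 on HFM replicate 1 and between 0.86 and 0.92 on the other 5 arrays. The part of these controls in the results was not tested, and counts that rest on HFM replicate 1 are given without it as well.

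As background, cells sense cholesterol through SCAP and the SREBP factors, which INSIG proteins hold in the endoplasmic reticulum while sterols are plentiful. Saturated fatty acids are known to stress that organelle in liver cells, where PERK and IRE1 signal through ATF4, CHOP and XBP1. Growth factors and cytokines in serum act through the ERK and NF-kappaB pathways, whose feedback inhibitors are short-lived transcripts that follow pathway activity.

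After 12 hours in HFM, MAP kinase phosphatases, immediate early genes and inflammatory cytokines fell more often than they rose relative to GM. Splicing kinases, long noncoding RNAs, mitotic genes and sterol-sensing genes rose more often than they fell. The changes were numerous and mostly small. limma with Benjamini-Hochberg adjustment called 8123 of the 13130 genes, which is 61.9%, with 3789 higher (28.9%) and 4334 lower (33%). The median size of a called change was 0.41, and 1312 called genes moved by less than 0.25. A change of at least 2-fold was called in 286 genes (2.18%), 255 higher (1.94%) and 31 lower (0.236%). The 3 HFM arrays did not overlap the 3 GM arrays in 8355 genes (63.6%).

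Every count of list members below is therefore read against a background in which about 3 in 5 genes were called. The median change over all tested genes was -0.07, and list medians are given beside that value. Calls also depended on level. Among genes averaging under log2 6, 13.9% were called higher and 36.3% lower, whereas between log2 8 and 10 these shares were 40.5% and 30.1%.

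The deviations of the array that stood apart were set beside those of the other HFM arrays, as a description, since the calls rest on a mean that includes it. Replicates 2 and 3 of HFM deviated from the GM mean in the direction of the call in all 8123 called genes, and replicate 1 did so in 8043 (99.0%). In 1039 called genes the deviation of replicate 1 was opposite to that of the other HFM arrays or more than 2 times as large. Among the 255 genes that rose by at least 2-fold, replicate 1 deviated more in 164, with a median of 1.25 against 1.17 for replicates 2 and 3. Among the 31 that fell by at least 2-fold it deviated more in 9, with medians of -1.10 and -1.16. Without this array 49 genes fell by at least 2-fold in place of 31.

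**Figure D1:**
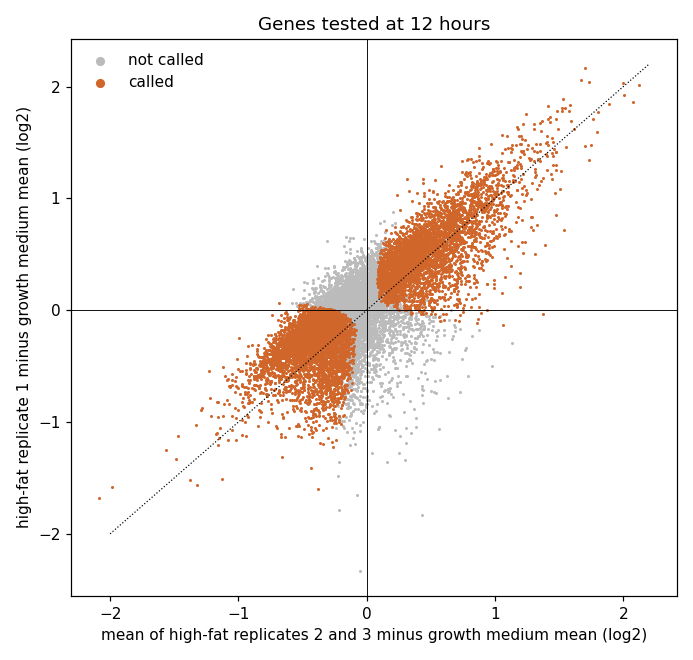
Each point is a gene tested at 12 hours, with the deviation of HFM replicate 1 from the GM mean on the vertical axis and that of the mean of HFM replicates 2 and 3 on the horizontal axis, both in log2 units. Called genes (orange) have the same sign on both axes in 8043 of 8123 cases, and the dotted line marks equal deviations.

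Secreted inflammatory factors gave some of the deepest falls. IL6, an inflammatory cytokine, stood at 8.83, 8.93 and 8.87 on the GM arrays and at 7.29, 6.97 and 6.82 on the HFM arrays. The groups were far apart, with replicate 1 the highest of the HFM arrays, and the change was -1.85 ± 0.11 (SE, limma adjusted p = 1.8e-07). CXCL8, a neutrophil chemokine, was at 7.53, 7.54 and 7.42 in GM and at 6.16, 6.05 and 5.97 in HFM. CXCL1, a chemokine for the same receptor, was at 9.65, 9.61 and 9.61 in GM and at 8.11, 8.23 and 8.27 in HFM. Neither gene overlapped between groups, and they fell by 1.43 ± 0.08 and 1.42 ± 0.05 (SE, n = 3 arrays a group). PTX3, a secreted pattern recognition molecule, fell by 1.26. Of the 16 chemokines and secreted cytokines tested, 9 fell, 4 rose and 3 did not pass the test, with a median of -0.52. IL11, a cytokine of the IL6 family, was at 5.03 in GM and 4.92 in HFM and did not pass (adjusted p = 0.42).

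The promoters of these 3 genes are shown because each holds the kappaB sequence GGNNTTNCC, searched on both strands in windows of 300 bases, 250 before and 50 after the annotated start, from RefSeq on GRCh38.p14. All 3 lie on the plus strand, and capitals mark the matches.
IL6 at chr7:22726950-22727249: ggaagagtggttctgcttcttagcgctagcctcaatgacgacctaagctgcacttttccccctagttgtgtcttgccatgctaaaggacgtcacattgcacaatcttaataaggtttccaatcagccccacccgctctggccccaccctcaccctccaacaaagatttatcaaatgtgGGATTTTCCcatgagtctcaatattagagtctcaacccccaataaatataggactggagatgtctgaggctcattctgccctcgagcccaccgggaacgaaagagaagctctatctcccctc
CXCL8 at chr4:73740319-73740618: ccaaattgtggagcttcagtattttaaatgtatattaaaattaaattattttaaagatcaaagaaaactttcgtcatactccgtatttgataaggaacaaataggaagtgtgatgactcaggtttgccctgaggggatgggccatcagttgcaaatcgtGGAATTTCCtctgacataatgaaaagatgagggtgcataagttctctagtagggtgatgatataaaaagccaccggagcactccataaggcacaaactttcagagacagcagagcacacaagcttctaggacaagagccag
CXCL1 at chr4:73869143-73869442: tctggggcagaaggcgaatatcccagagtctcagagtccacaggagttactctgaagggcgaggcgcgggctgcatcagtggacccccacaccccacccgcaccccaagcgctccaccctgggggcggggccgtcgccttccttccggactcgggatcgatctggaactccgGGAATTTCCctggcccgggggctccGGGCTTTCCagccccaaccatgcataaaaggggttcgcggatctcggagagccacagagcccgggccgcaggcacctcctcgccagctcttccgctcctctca
CXCL1 holds 2 matches and the others 1 each. The sequence is common: 24.2% of the 10590 tested genes with a promoter in the table hold it in at least 1 window. A match describes the letters and no binding was measured.

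MAP kinase phosphatases fell almost as a group. DUSP4, a nuclear phosphatase of MAP kinases, was at 8.10, 8.07 and 8.13 in GM and at 6.42, 5.89 and 6.14 in HFM, the largest fall among the genes named here at -1.95 ± 0.11 (SE, limma adjusted p = 8.8e-08). All 3 of its probe sets fell, by 1.95, 2.11 and 1.99. DUSP6, the cytoplasmic phosphatase of ERK, was at 8.78, 8.73 and 8.72 in GM and at 7.17, 7.44 and 7.40 in HFM. No HFM array of either phosphatase reached the GM range. Of 10 MAP kinase phosphatases tested, 9 fell and 1 rose, with a median of -0.41. DUSP8 and DUSP5 fell by 0.61 and 0.48, although DUSP8 stood at -0.01 and did not pass (adjusted p = 0.97) when probe sets of the _s_at and _x_at types were left out.

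The Sprouty proteins, which block receptor tyrosine kinase signalling upstream of ERK, moved the same way. SPRY2 was at 8.35, 8.32 and 8.36 in GM and at 7.14, 7.15 and 7.22 in HFM, a fall of 1.18 ± 0.04 (SE, limma adjusted p = 1.4e-08). SPRY4 fell by 1.07, IER3, an early survival gene, by 0.99, and FOSL1, an AP-1 subunit induced by ERK, by 0.76. Of 18 genes in the list of Sprouty, Spred and ERK output genes, 15 fell, 1 rose and 2 did not pass, with a median of -0.50. The 1 rise was lost without GM replicate 1 and without HFM replicate 2. The chromatin protein HMGA2 was at 12.03 in GM and 12.00 in HFM on its highest probe set (adjusted p = 0.64), and its 6 tested probe sets were called both ways.

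Immediate early factors fell more often than they rose. IER2 was at 10.13, 10.15 and 10.12 in GM and at 9.03, 8.97 and 8.94 in HFM, with no overlap, and fell by 1.15 ± 0.05 (SE). The Kruppel-like factor KLF2 fell by 1.06, KLF4 by 0.80, and the small Maf protein MAFF by 0.77. The second probe set of each was lower too, by 0.36 in KLF2, 0.60 in KLF4 and 0.63 in MAFF. Of 17 AP-1 and immediate early factors tested, 10 fell, 3 rose and 4 did not pass, with a median of -0.30. JUND, an AP-1 subunit that many cells express constantly, was at 9.73 in GM and 9.69 in HFM and did not pass (adjusted p = 0.57).

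NF-kappaB pathway genes fell more often than they rose. The inhibitors NFKBIA and NFKBIE, themselves targets of the pathway, fell by 0.91 and 0.99. NFKBIA was at 9.63, 9.54 and 9.59 in GM and at 8.96, 8.58 and 8.50 in HFM, where replicate 1 fell less than the other arrays. NFKBIZ, an atypical inhibitor that also coactivates some targets, was at 7.65, 7.61 and 7.55 in GM and at 8.67, 8.70 and 8.64 in HFM. It rose by 1.07 ± 0.05 (SE, limma adjusted p = 2.8e-08), its second probe set was also called higher, and the subunit REL rose by 0.99 on its highest of 3. All 20 subunits, kinases and inhibitors tested passed, 15 lower and 5 higher, with a median of -0.40.

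Some interferon and antigen presentation genes fell. IRF1, a transcription factor induced by interferon and by NF-kappaB, was at 7.83, 7.72 and 7.74 in GM and at 6.81, 6.60 and 6.61 in HFM, a fall of 1.09 ± 0.07 (SE). ISG20, a nuclease, fell by 0.70, OAS1, a sensor of double-stranded RNA, by 0.65, and the antibody receptor TRIM21 by 0.57. Of 25 interferon-stimulated genes 11 fell, 2 rose and 12 did not pass, with a median of -0.16. Of 19 HLA class I and peptide loading genes 9 fell, 4 rose and 6 did not pass. The peptide transporter TAP1 fell by 0.47, and NLRC5, the class I transactivator, by 0.43.

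**Figure D2:**
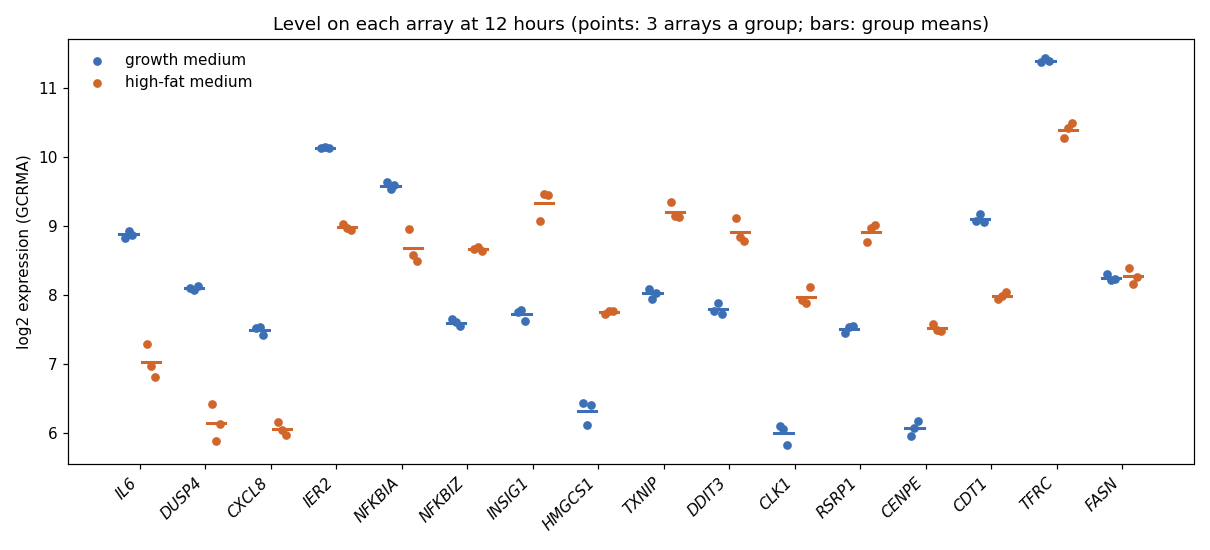
Log2 level of 16 genes on each of the 6 arrays at 12 hours, with GM in blue, HFM in orange and a bar at each group mean. IL6, DUSP4, CXCL8, IER2, NFKBIA, CDT1 and TFRC are lower in HFM, NFKBIZ, INSIG1, HMGCS1, TXNIP, DDIT3, CLK1, RSRP1 and CENPE are higher, and the FASN arrays overlap.

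Several lists of RNA-processing genes had more rises than falls. CLK1, a kinase that phosphorylates SR splicing factors and controls its own splicing, was at 6.10, 6.07 and 5.83 in GM and at 7.92, 7.89 and 8.12 in HFM. The groups were separated by more than 1.5 log2 units, and the change was 1.98 ± 0.08 (SE, limma adjusted p = 2.4e-08). Its relative CLK4 rose by 1.29 and 1.09 on its 2 probe sets and HIPK3 by 0.63 on its highest. Of 15 splicing factor kinases and relatives 8 rose, 1 fell and 6 did not pass, with a median of 0.22. The 1 that fell, the muscle kinase SRPK3, lost its call without GM replicate 1 (adjusted p = 0.074), without GM replicate 3 (0.082) and without HFM replicate 1 (0.095).

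Among SR proteins and SR-related factors 12 of 21 rose, 3 fell and 6 did not pass, with a median of 0.23. RSRP1, an arginine and serine rich protein, was at 7.45, 7.54 and 7.56 in GM and at 8.77, 8.98 and 9.01 in HFM. PNISR, which carries a similar domain, rose by 0.69 to 1.96 on its 6 probe sets, LUC7L3 by 0.16 to 1.10 on its 6, and RSRC2 by 0.92 and 1.08 on its 2. No array of RSRP1 overlapped between groups. SRSF1, a core SR protein, did not pass on its brightest probe set, at 12.06 in GM and 12.14 in HFM (adjusted p = 0.075), but 6 of its 8 probe sets were called higher, among them 226419_s_at by 1.39 and 227164_at by 0.65.

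Most of the long noncoding RNAs rose. Of 13 tested, 11 rose, 0 fell and 2 did not pass, and the median was 0.87. MIR100HG, the host transcript of a microRNA cluster, was at 6.68, 6.54 and 6.62 in GM and at 8.64, 8.63 and 8.58 in HFM, a rise of 2.01 ± 0.05 (SE, limma adjusted p = 3.9e-09). MINCR rose by 1.79, JPX, a noncoding neighbour of the X inactivation centre, by 1.33, and TUG1 by 1.04. TUG1 rose on all 4 of its probe sets. The imprinted MEG3 was at 4.75 in GM and 4.67 in HFM and did not pass (adjusted p = 0.38). With each array left out in turn, 10 or 11 of the list rose and 0 fell. Of 7 host genes of small nucleolar RNAs, a related kind of noncoding transcript, 4 rose and 1 fell, or 3 and 2 without HFM replicate 1.

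mRNA decay factors and deadenylases rose in 16 of 25 cases, with 4 lower, 5 not passing and a median of 0.26. CNOT6, a deadenylase of the CCR4-NOT complex, was at 7.22, 7.25 and 7.20 in GM and at 8.17, 8.25 and 8.17 in HFM. The other CNOT6 probe set rose by 0.16. TIA1, an RNA-binding protein of stress granules, rose by 0.65 to 1.09 on its 6 probe sets. CNOT8 and the roquin RC3H2 rose by 0.70 and 0.67 on their brightest. In CNOT8, 202163_s_at did not pass at 0.26 (limma over all probe sets, adjusted p = 0.32) and 202162_s_at rose by 0.27. In RC3H2, 230134_s_at and 230133_at did not pass, at 0.13 and -0.12, and the others were called higher. HNRNPD, which binds AU-rich elements, did not pass on its brightest probe set, at 11.92 in GM and 11.83 in HFM (adjusted p = 0.30). Of its 6 probe sets 4 did not pass, and 213359_at rose by 1.97 and 229129_at by 0.15.

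Some genes had all their tested probe sets called in the same direction. Among these, the largest changes on the brightest probe set included further RNA-processing genes. PCF11, a factor of transcription termination, was at 6.14, 6.14 and 6.09 in GM and at 7.91, 7.51 and 7.69 in HFM, and ESF1, a nucleolar protein of ribosomal RNA processing, at 7.25, 7.21 and 7.16 and at 8.62, 8.68 and 8.68. Both stood clear of the GM range on all HFM arrays and rose by 1.58 ± 0.10 and 1.46 ± 0.05 (SE). RUFY2, an endosomal adaptor, rose by 1.86, the RNA-binding protein RBMS3 by 1.63, the importin KPNA5 by 1.52, the zinc finger gene ZC3H6 by 1.51, ANKRD10 by 1.46 and the chromosome maintenance gene SMC6 by 1.44. The falls of the same kind included FAM43A at -1.46, the precursor RNA45SN5 of ribosomal RNA at -1.23, the coactivator NCOA5 at -1.15 and the zinc receptor GPR39 at -1.12. Dimmer probe sets shared the direction and not always the size. The other probe set stood at 0.40 in PCF11, 0.30 in ANKRD10 and -0.58 in FAM43A, but at 1.21 in ESF1 and -1.07 in NCOA5. RBMS3 went down to 0.37 on 206767_at, with 1.43 on 238447_at.

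RNA45SN5 was not alone in the ribosome pathway. It stood at 7.30, 7.38 and 7.41 in GM and at 6.34, 6.04 and 6.02 in HFM, with replicate 1 the highest HFM array. Of 32 genes of ribosome biogenesis and RNA polymerase I, 19 fell, 7 rose and 6 did not pass, with a median of -0.26. RRS1, an assembly factor of the large subunit, fell by 0.77, the polymerase subunit POLR1G by 0.73 and the U3 particle protein RRP9 by 0.69, whereas the polymerase subunit POLR1F rose by 0.78. NPM1, a nucleolar chaperone, did not pass on its brightest probe set, at 13.21 in GM and 13.22 in HFM (adjusted p = 0.96), and its other 2 rose by 0.30 and 0.28.

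Most cytosolic ribosomal proteins did not pass. Of 31 cytosolic ribosomal proteins 6 rose, 6 fell and 19 did not pass, so neither direction led. Centring of the arrays gave 3 higher and 8 lower. The counts were 4 and 3 without GM replicate 1 or 2, and 3 and 4 without HFM replicate 2 or 3. Changes stayed small: RPS24 rose by 0.36, RPL11 by 0.23, and RPL9 and RPS9 fell by 0.27 and 0.22. The call of RPS9 was lost with a term for the level of the hybridisation controls, at -0.12 (adjusted p = 0.052). EIF2S2, a subunit of the factor that loads the initiator tRNA, rose by 0.96 and EIF5B by 0.69. Of 34 translation initiation factors 9 rose (26.5%, beside 28.9% of all genes), 12 fell (35.3%, beside 33%) and 13 did not pass. The count that fell dropped to 7 without HFM replicate 2 and to 7 without HFM replicate 3. The balance turned to 11 higher and 4 lower of 28 without _s_at and _x_at probe sets, and to 10 and 8 with the mean of probe sets. Of 17 cytosolic tRNA synthetases 6 rose and 7 fell, or 7 and 5 with the mean of probe sets.

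Some endoplasmic reticulum stress genes rose. DDIT3, which encodes the stress factor CHOP, was at 7.77, 7.88 and 7.73 in GM and at 9.12, 8.85 and 8.78 in HFM, with replicate 1 the highest, and rose by 1.12 ± 0.09 (SE, limma adjusted p = 1.1e-06). CEBPG, a partner of ATF4, rose by 0.69 on its brightest probe set, while the other stood at -0.01 and was not called. The lipoprotein receptor VLDLR rose by 0.81. The mRNA of ATF4 itself was at 11.69 in GM and 11.64 in HFM and did not pass (adjusted p = 0.50). Of 17 genes of the CHOP and ATF4 arm 8 rose, 4 fell and 5 did not pass, with a median of 0.12. Without HFM replicate 1 the counts were 9 and 7. Without _s_at and _x_at probe sets the balance turned to 3 higher and 4 lower of 10, with a median of -0.02. The ATF4 composite sequence TGATGNAAT is present in 0.642% of tested genes with a promoter. It had no match in the 2 windows of DDIT3, each of 300 bases, which says only that these letters are not there.

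Among sensors of the unfolded protein response, ATF6 rose by 0.87 although its 4 probe sets were called both ways, and MBTPS2, a protease that cleaves it, by 0.65 on 1 of 2 probe sets. The mean of all MBTPS2 probe sets on the array, untested ones included, stood at 0.10 and did not pass (adjusted p = 0.076). ERN1, which encodes IRE1, was at 5.34, 5.24 and 5.46 in GM and at 6.46, 6.09 and 6.02 in HFM, a rise of 0.85 ± 0.10 (SE). That rise belongs to 1 of 2 probe sets. With only the 6 arrays at 12 hours the other one had the higher mean, and ERN1 then stood at 0.13 and did not pass (adjusted p = 0.16). Of 19 sensors and activators 8 rose and 4 fell, and without HFM replicate 1 these counts were 8 and 7.

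Chaperones and folding enzymes of the organelle rose in 9 of 22 cases and fell in 3, and 7 fell without HFM replicate 1. HSP90B1, its main HSP90 protein, was at 10.16, 10.21 and 10.19 in GM and at 10.87, 10.86 and 10.78 in HFM. The oxidase ERO1B rose by 0.80, the isomerase FKBP14 by 0.72 and the reductase DNAJC10 by 0.55. HSP90B1 did not overlap between groups and rose by 0.65 and 0.45 on its 2 probe sets. HSPA5, the main HSP70 protein of the organelle, was at 12.00 in GM and 12.00 in HFM and did not pass (adjusted p = 0.99). Of 22 genes of ER associated degradation 8 rose and 6 fell, with UBXN4 at 0.70 and AUP1, which also sits on lipid droplets, at -0.74.

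Cytosolic heat shock proteins gave 8 of 26 higher and 8 lower, 30.8% each, near the 28.9% and 33% of all genes. HSPA4L rose by 1.08, DNAJC2 by 0.88 and HSP90AA1 by 0.76, and the cochaperone BAG1 fell by 0.65. HSP90AB1, the constitutive partner of HSP90AA1, was at 12.52 in GM and 12.46 in HFM and did not pass (adjusted p = 0.24). Of 33 proteasome subunits 11 rose and 11 fell (33.3% each, also near those shares), with PSME4 at 0.55 and the immunoproteasome subunit PSMB9 at -0.44. The proteasome count that fell was 16 without HFM replicate 1, 7 and 5 without GM replicates 1 and 3, and 5 without HFM replicate 2 and 5 without replicate 3.

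Autophagy genes rose more often than they fell. VMP1, a membrane protein needed to form autophagosomes, was at 5.34, 5.21 and 5.30 in GM and at 7.32, 7.09 and 6.93 in HFM. The change was 1.83 ± 0.09 (SE, limma adjusted p = 4.6e-08), and each HFM array lay more than 1.5 above the GM arrays. TAX1BP1, a cargo receptor, rose by 1.11 on its highest of 3 probe sets. RB1CC1, a scaffold of the initiating kinase complex, was at 7.95, 7.98 and 7.86 in GM and at 8.26, 9.07 and 9.19 in HFM, where replicate 1 sat close to GM. ATG4B, the protease that processes LC3 proteins, fell by 0.80, 0.53 and 0.33 on its 3 probe sets. The call of RB1CC1 was lost with the term for the hybridisation controls, at 0.33 (adjusted p = 0.076). Of 35 members 18 rose, 9 fell and 8 did not pass, with a median of 0.21.

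Lysosomal genes went the other way in count, with 14 of 31 lower, 6 higher and a median of -0.14. The proton pump was split within itself: ATP6V0B fell by 0.76, whereas ATP6V1C1 rose by 0.67 and ATP6V1D by 0.61. SCARB2, a lysosomal membrane protein, rose by 0.73. With a term for the level of the hybridisation controls, which compares HFM with GM through HFM replicate 1, 7 lysosomal genes rose and 5 fell. CTSB, a protease, was at 12.30 in GM and 12.28 in HFM (adjusted p = 0.82).

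Several sterol-responsive genes rose. INSIG1, the retention protein for SCAP, was at 7.76, 7.79 and 7.63 in GM and at 9.07, 9.46 and 9.46 in HFM. Its 3 probe sets rose by 1.60, 1.63 and 1.03. STARD4, a cytosolic sterol carrier, was at 7.23, 7.35 and 7.25 in GM and at 9.08, 8.83 and 8.76 in HFM and rose by 1.61 ± 0.08 (SE, limma adjusted p = 4.6e-08). HFM replicate 1 was the lowest HFM array for INSIG1 and the highest for STARD4. LRP8, a lipoprotein receptor, rose by 0.97, 0.95 and 0.59 on its 3 probe sets. Of 19 genes of sterol sensing, uptake and trafficking 9 rose, 4 fell and 6 did not pass, with a median of 0.12. NPC2, which exports cholesterol from lysosomes, was at 11.11 in GM and 11.23 in HFM and did not pass (adjusted p = 0.072).

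The enzymes of the pathway did not move as a block. HMGCS1, which makes HMG-CoA, was at 6.44, 6.13 and 6.41 in GM and at 7.73, 7.76 and 7.76 in HFM, a rise of 1.43 ± 0.09 (SE). IDI1, the isomerase of isopentenyl diphosphate, was at 8.43, 8.51 and 8.38 in GM and at 9.86, 9.75 and 9.74 in HFM and rose on all 4 probe sets. The demethylating oxygenase MSMO1 rose by 1.00 and GGPS1, which makes geranylgeranyl diphosphate, by 0.65, although the other GGPS1 probe set did not pass, and the gene stood at 0.26 without _s_at and _x_at probe sets (adjusted p = 0.077). These were 4 of the 6 that rose among 17, while 5 fell, 6 did not pass and the median was 0.00. FDPS, which makes farnesyl diphosphate, was at 10.71 in GM and 10.67 in HFM (adjusted p = 0.64). Without HFM replicate 1, 6 rose and 7 fell. The sterol regulatory sequence TCACNCCAC, present in 1.42% of tested genes with a promoter, had no match in the 300-base windows of HMGCS1, INSIG1, STARD4 or SCD, which says only that these letters are not in those windows.

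Fatty acid synthesis and desaturation were mixed. SCD, the desaturase that makes oleate, was at 8.56, 8.55 and 8.53 in GM and at 9.58, 9.52 and 9.49 in HFM, a rise of 0.98 ± 0.04 (SE, limma adjusted p = 3.1e-08). The arrays of each group lay within 0.1 of each other. FASN, the fatty acid synthase, was at 8.30, 8.21 and 8.23 in GM and at 8.39, 8.16 and 8.26 in HFM, overlapping, with a change of 0.02 ± 0.08 (adjusted p = 0.79). The elongase ELOVL7 rose by 0.56 and the dehydratase HACD2 by 0.54. Of 21 genes 10 rose, 6 fell and 5 did not pass, with a median of 0.05.

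Genes of fat storage were lower more often than higher. G0S2, an inhibitor of the triglyceride lipase ATGL, was at 9.27, 9.22 and 9.26 in GM and at 8.37, 8.22 and 8.22 in HFM and fell by 0.98. DGAT2, the last enzyme of triglyceride synthesis, fell by 0.47 on its brightest probe set, and the other was not called at -0.22. The phosphatase LPIN1 rose by 0.45. PLIN2, the lipid droplet coat protein, was at 10.03, 10.08 and 10.10 in GM and at 10.38, 10.22 and 10.17 in HFM. Its rise of 0.19 ± 0.06 passed (limma adjusted p = 0.019) but not without GM replicate 1, where it was 0.16 (adjusted p = 0.069), nor with only the 6 arrays at 12 hours (adjusted p = 0.071). Of 24 genes of triglyceride synthesis, droplets and lipolysis 13 fell, 4 rose and 7 did not pass, with a median of -0.21, and 2 rose without GM replicate 1.

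Among fatty acid oxidation genes 10 of 25 fell (40%, beside 33% of all genes) and 7 rose (28%, beside 28.9%). The other 8 did not pass, and the list median was -0.09 beside -0.07 for all genes. The peroxisomal oxidase ACOX3 was at 6.48, 6.37 and 6.56 in GM and at 5.76, 5.60 and 5.77 in HFM, the thiolase ACAA1 fell by 0.66 and the isomerase ECI1 by 0.55. The level of CPT1A, whose enzyme starts fatty acid entry into mitochondria, was 10.20, 10.18 and 10.24 in GM and at 10.25, 10.05 and 9.97 in HFM and did not pass (adjusted p = 0.15), and 1 of its 4 probe sets was called, at -0.24. PPAR regulated genes gave 3 higher and 4 lower of 15, with PDK4 up by 0.48 and ANGPTL4 at -0.44 (-0.17 with the term for the hybridisation controls, adjusted p = 0.11). Fatty acid uptake and activation gave 5 higher and 4 lower of 16, 8 and 5 without HFM replicate 1, and 4 and 5 with arrays centred. FABP5, a fatty acid carrier, was at 13.04 in GM and 13.09 in HFM (adjusted p = 0.45). With the term for the hybridisation controls 8 oxidation genes rose and 6 fell, and 6 PPAR regulated genes rose and 2 fell.

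The glucose-responsive arrestins TXNIP and ARRDC4 rose. TXNIP, which lowers glucose uptake and binds thioredoxin, was at 8.09, 7.95 and 8.03 in GM and at 9.35, 9.14 and 9.13 in HFM. ARRDC4, a close relative, was at 6.68, 6.47 and 6.68 in GM and at 8.05, 8.02 and 8.13 in HFM. The groups were separated in both genes, and they rose by 1.18 ± 0.07 and 1.46 ± 0.07 (SE). TXNIP rose by 1.18, 1.14 and 1.17 on its 3 probe sets. Of 9 alpha-arrestins and Mondo factors, which include the transcription factors that drive both genes, 3 rose, 5 fell and 1 did not pass, with ARRDC2 down at -0.70.

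The TXNIP promoter is shown because 1 of its 2 windows holds the carbohydrate response element, a pair of E-box-like sequences, marked by capitals and searched on both strands. It lies on the minus strand of GRCh38.p14 and is from RefSeq.
TXNIP at chr1:145996530-145996829: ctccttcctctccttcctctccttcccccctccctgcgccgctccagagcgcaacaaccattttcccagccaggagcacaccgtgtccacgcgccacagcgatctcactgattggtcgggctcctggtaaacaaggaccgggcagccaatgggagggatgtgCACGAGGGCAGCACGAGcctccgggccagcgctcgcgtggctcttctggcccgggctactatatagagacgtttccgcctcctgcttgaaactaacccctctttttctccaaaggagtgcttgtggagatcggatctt
The same search found it in 1.63% of tested genes with a promoter, and not in the window of ARRDC4.

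Some genes of glucose metabolism rose, and more hypoxia-inducible genes rose than fell. SLC2A3, a high-affinity glucose transporter, was at 6.90, 6.80 and 6.95 in GM and at 7.96, 8.03 and 8.08 in HFM, and PDK1, the kinase that shuts pyruvate dehydrogenase, at 8.09, 8.10 and 8.05 and at 8.76, 9.07 and 9.15. They rose by 1.14 ± 0.06 and 0.92 ± 0.09 (SE). The other probe sets of SLC2A3 rose by 0.86 and 0.26, and those of PDK1 by 0.54 and 0.39. PFKFB3, a regulator of glycolytic flux, fell by 0.67. Of 34 genes of glucose transport and glycolysis 10 rose (29.4%, beside 28.9% of all genes), 9 fell (26.5%, beside 33%) and 15 did not pass. Without HFM replicate 1, 11 rose and 13 fell. LDHA was at 13.46 in GM and 13.48 in HFM (adjusted p = 0.71).

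Of 21 hypoxia-inducible factors and targets 13 rose, 4 fell and 4 did not pass, with a median of 0.34. P4HA1, a collagen prolyl hydroxylase, was at 8.54, 8.52 and 8.40 in GM and at 9.67, 9.55 and 9.55 in HFM. The histone demethylase KDM3A rose by 1.04, ANKRD37 by 0.87 and the mitophagy receptor BNIP3L by 0.79. P4HA1 did not overlap between groups and rose by 1.10 ± 0.06 (SE, limma adjusted p = 5.4e-08). Between 13 and 15 of the list rose and 4 fell with any single array left out.

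Amino acid transport genes and the transferrin receptor were among the genes that fell. Of 19 genes of serine and asparagine synthesis and amino acid transport 13 fell, 2 rose and 4 did not pass, with a median of -0.26, and 4 rose without HFM replicate 1. SLC1A4, a neutral amino acid transporter, was at 7.88, 7.79 and 7.87 in GM and at 7.10, 7.06 and 7.02 in HFM and fell on all 4 probe sets. SLC7A5, the leucine transporter, fell by 0.57, whereas SLC7A11, the cystine transporter, rose by 0.61. Of 16 folate and one-carbon enzymes 3 rose and 6 fell. TFRC, the transferrin receptor, was at 11.37, 11.43 and 11.38 in GM and at 10.27, 10.42 and 10.49 in HFM. It fell by 1.00 ± 0.06 (SE) with all 3 probe sets lower. Of 15 iron genes 5 fell, a share of 33.3% beside 33% of all genes, 0 rose and 10 did not pass (7 fell and 1 rose without HFM replicate 1), and FTL, a ferritin chain, was at 13.60 in GM and 13.56 in HFM (adjusted p = 0.47).

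Redox and zinc genes showed single movers. TXNRD1, the thioredoxin reductase, was at 12.00, 12.00 and 12.02 in GM and at 12.68, 12.61 and 12.62 in HFM, a rise of 0.63 ± 0.04 (SE). The peroxidase GPX8 rose by 0.74 and the mitochondrial peroxiredoxin PRDX3 by 0.62. Of 30 NRF2, glutathione and thioredoxin genes 8 rose (26.7%, beside 28.9% of all genes), 11 fell (36.7%, beside 33%) and 11 did not pass. The balance turned to 10 higher and 8 lower with the term for the hybridisation controls and to 6 and 3 with a 1.2-fold minimum. Of 21 metallothioneins and zinc transporters 10 rose, 2 fell and 9 did not pass, with a median of 0.21. The zinc exporter SLC30A1 rose by 0.64 on 1 of 2 probe sets. The mean of all its probe sets on the array, tested or not, stood at 0.08 and did not pass (adjusted p = 0.14). The level of MT2A, the main metallothionein, was 13.45 in GM and 13.49 in HFM (adjusted p = 0.45).

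Genes of mitochondrial ribosomal proteins fell more often than they rose. Of 48 tested, 22 fell (45.8%, beside 33% of all genes), 9 rose (18.8%, beside 28.9%) and 17 did not pass, with a median of -0.13. MRPL12 was at 11.31, 11.31 and 11.35 in GM and at 10.80, 10.60 and 10.64 in HFM, and MRPS18A fell by 0.69, while MRPL39 rose by 0.66. In MRPL12 HFM replicate 1 lay nearest to GM. Of 34 respiratory chain and ATP synthase genes 12 fell, a share of 35.3% near that of all genes, 7 rose (20.6%) and 15 did not pass. Without HFM replicate 1 the counts were 19 and 7. NDUFS7 of complex I fell by 0.53 and UQCRC1 of complex III by 0.47. With the term for the hybridisation controls 15 mitochondrial ribosomal genes rose and 15 fell, and 13 respiratory genes rose and 7 fell.

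Mitotic genes rose more often than they fell. CENPE, a kinetochore motor, was at 5.97, 6.08 and 6.18 in GM and at 7.58, 7.50 and 7.48 in HFM, and KIF18A, a motor that aligns chromosomes, at 6.94, 6.99 and 6.99 and at 8.37, 8.19 and 8.21. Neither gene overlapped between groups, and they rose by 1.44 ± 0.07 and 1.28 ± 0.07 (SE). The spindle gene HMMR rose by 1.27 and the kinetochore gene NUF2 by 1.14. Of 40 genes of mitosis, kinetochore and spindle 22 rose, 6 fell and 12 did not pass, with a median of 0.26. PTTG1, which encodes securin, was at 11.50 in GM and 11.61 in HFM and did not pass (adjusted p = 0.14). The count that fell was 2 without GM replicate 1 and 3 without GM replicate 2 or 3, HFM replicate 3, or replicate 2 of either medium at 24 hours.

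Of 41 replication genes 11 rose (26.8%, beside 28.9% of all genes), 13 fell (31.7%, beside 33%) and 17 did not pass. CDT1, which licenses origins, was at 9.07, 9.17 and 9.06 in GM and at 7.94, 7.99 and 8.05 in HFM, a fall of 1.11 ± 0.05 (SE), and its second probe set fell by 0.34. ORC3, of the origin recognition complex, rose by 1.07, the kinase CDC7 by 0.78 and the polymerase subunit POLE2 by 0.71. TYMS, the thymidylate synthase, was at 12.40 in GM and 12.36 in HFM and did not pass (adjusted p = 0.36). Of 19 histone genes 3 rose and 6 fell, with H2AC6 and H2BC21 up by 0.94 and 0.92.

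Growth arrest and death genes moved in both directions. Of 23 p53 and growth arrest targets 14 rose, 4 fell and 5 did not pass, with a median of 0.27. CCNG2, an atypical cyclin of quiescent cells, was at 8.39, 8.34 and 8.28 in GM and at 8.87, 9.23 and 9.18 in HFM and rose on all 4 probe sets. TP53INP1 rose by 0.80 and ZMAT3 by 0.64, but TP53I3 fell by 0.82. Of 25 BCL2 family and death receptor genes 15 fell, 6 rose and 4 did not pass, with a median of -0.25. The receptor FAS rose by 0.52 to 0.94 on its 5 probe sets, and its adaptor FADD fell by 0.69. MCL1, a survival protein of the family, did not pass on its brightest probe set, at 10.18 in GM and 10.25 in HFM (adjusted p = 0.23), while its other 4 fell by 1.07, 0.90, 0.45 and 0.22. Of 25 FOXO and insulin signalling genes 9 rose and 7 fell (8 and 4 without GM replicate 1), and the repressor BCL6 rose by 0.96, 1.12 and 0.79 on its 3 probe sets.

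Matrix genes rose in places. COL8A1, a short-chain collagen, was at 4.78, 4.75 and 4.68 in GM and at 5.89, 5.82 and 5.94 in HFM, and FN1, fibronectin, at 10.11, 10.16 and 10.06 and at 10.77, 10.53 and 10.54. Both groups of arrays were apart, and they rose by 1.14 ± 0.08 and 0.50 ± 0.07 (SE), with the 5 probe sets of FN1 between 0.40 and 0.53. COL4A1 of basement membranes rose by 0.63. COL1A1 fell by 0.74 on its highest probe set and was called both ways among 3 tested. The mean of all its probe sets on the array, untested ones included, was -0.05 (adjusted p = 0.49). Of 25 collagens and modifying enzymes 10 rose and 3 fell, and without HFM replicate 1, 9 and 5. Of 21 matricellular genes 9 rose and 3 fell. The plasminogen activators PLAU and PLAT fell by 0.82 and 0.72, and of 17 genes of that system and of matrix proteases 5 rose and 7 fell, or 3 and 2 of 11 without _s_at and _x_at probe sets.

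In the Hippo pathway, which restrains YAP, the kinases STK3 and LATS2 rose by 0.91 and 1.06 and the DNA-binding partner TEAD1 by 0.76. STK3 was at 9.14, 9.06 and 9.06 in GM and at 10.04, 9.97 and 9.96 in HFM. CCN1, a target of YAP, did not pass on its brightest probe set, at 12.17 in GM and 12.26 in HFM (adjusted p = 0.36), while the other, 210764_s_at, rose by 0.53. LATS2 rose on 1 of 2 tested probe sets. The mean of all its probe sets on the array, untested ones included, stood at 0.14 and did not pass (adjusted p = 0.079). Of 22 Hippo genes 10 rose and 3 fell, or 12 and 7 without HFM replicate 1. Of 27 TGF-beta ligands, receptors and SMADs 7 rose and 4 fell, or 8 and 9 without that array and 6 and 10 with arrays centred, with TGFB2 up by 0.81 and the activin subunit INHBA by 0.65.

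**Figure D3:**
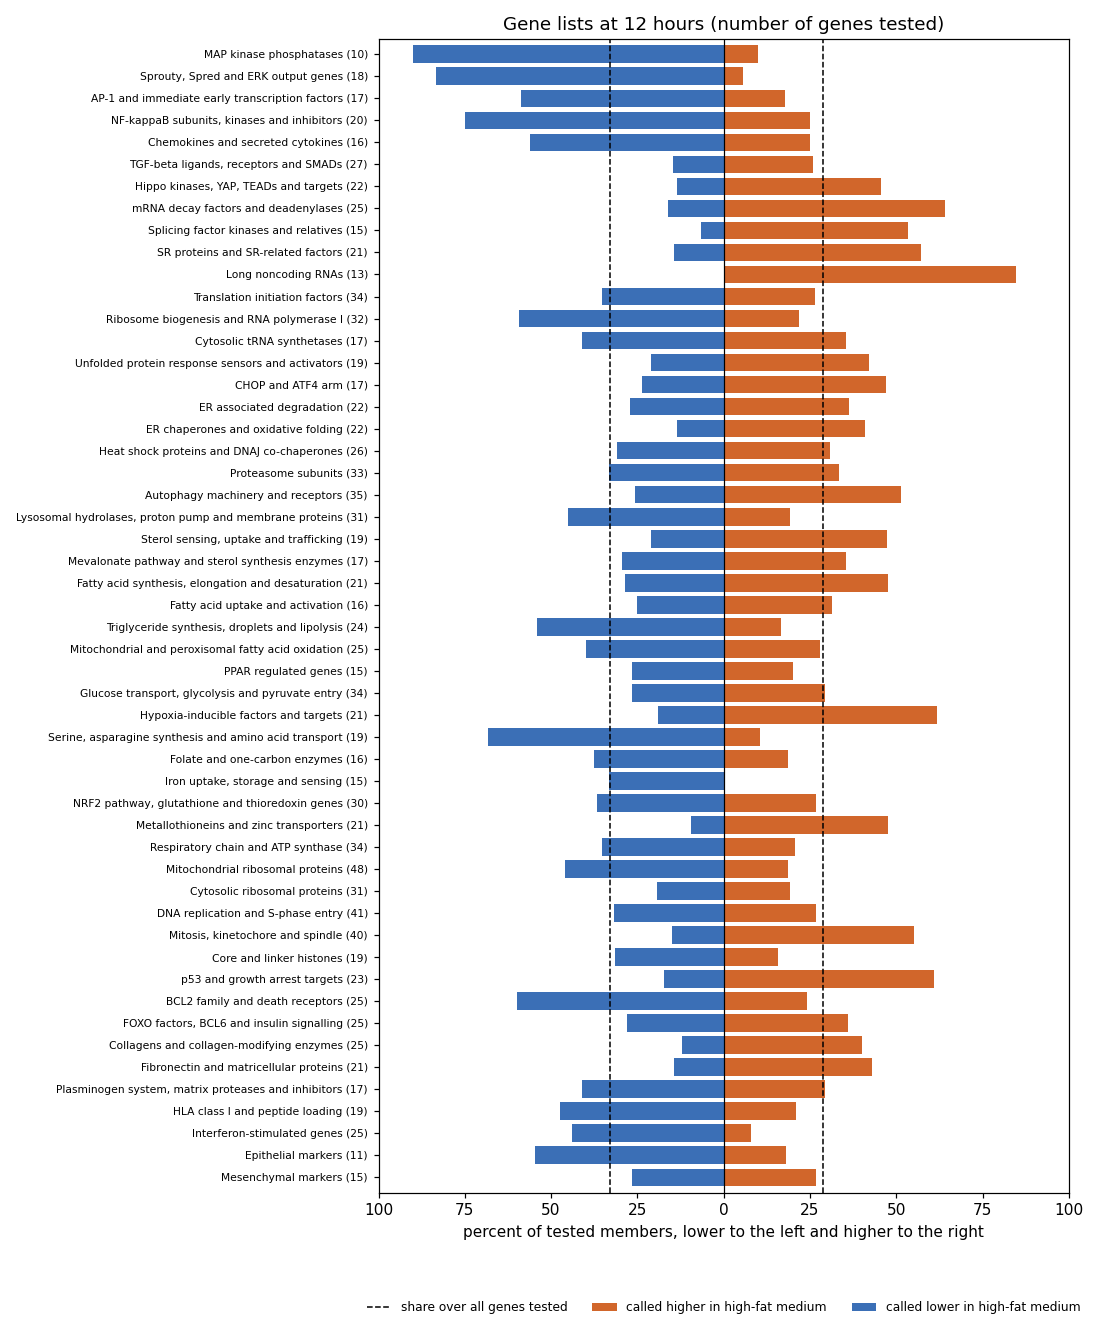
For each gene list with at least 10 genes tested, the percent of tested members called higher (orange, to the right) and lower (blue, to the left) in HFM. Dashed lines mark the shares over all 13130 genes, 28.9% higher and 33% lower. MAP kinase phosphatases and Sprouty genes reach far past the line for lower, and long noncoding RNAs past the line for higher.

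The probe sets of a gene did not always give the same answer. Of 6477 genes with 2 or more tested probe sets, 1257 (19.4%) had all of them called higher and 813 (12.6%) all called lower in HFM. In 1576 (24.3%) some were higher and the rest not called, and in 1377 (21.3%) some were lower and the rest not called. In 404 genes (6.24%) probe sets were called in both directions, and in 1050 (16.2%) none was called. Over all probe sets, 14665 of 24649 were called (59.5%).

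The 2 brightest probe sets of a gene were compared directly. Their changes correlated across the 6477 genes at Pearson's r = 0.68 and Spearman's rho = 0.70. This is a description over genes measured on the same arrays, which are not independent replicates. Where the brightest was called in the test over all probe sets, in 4196 genes, the second was called the same way in 2687 (64.0%), the opposite way in 188 (4.48%) and not called in 1321 (31.5%).

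The share of matching calls was higher among larger changes and among rises. When the brightest probe set was called and rose by less than 0.25, the second was called higher too in 49.4% of genes. When it rose by at least 1 this share was 87.2%, with 3 of 148 opposite. For falls these shares were 38.2% and 77.8%, with 0 of 18 opposite at the larger size. Shares with the same sign, called or not, were 82.6% and 93.2% for rises and 80.9% and 94.4% for falls. When the second was within 1 log2 unit of the first, 69.4% had the same call, and 52.2% when it was 3 or more below.

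**Figure D4:**
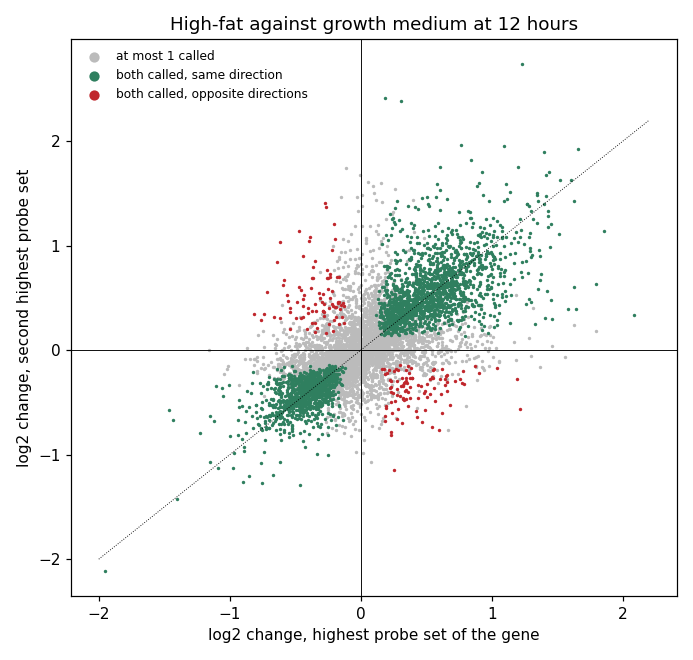
Change in HFM of the second brightest probe set against that of the brightest, in log2 units, for 6477 genes, with the dotted line at equality. Green points (2687 genes) have both called in the same direction and red points (188 genes) in opposite directions.

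Dimmer probe sets were called higher about as often as the brightest of the same genes and lower less often, as a description with no test. Among 11515 dimmer probe sets 37.1% were called higher and 20.9% lower, against 36.5% and 28.3% of the 6477 brightest. At least 2-fold rises were called in 473 (4.11%) of the dimmer and 148 (2.29%) of the brightest. In 2281 genes the brightest was not called, and 724 of these had a dimmer probe set called higher, 71 of them by at least 2-fold, while 581 had 1 called lower.

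ZNF207, a zinc finger gene of spindle assembly, shows the pattern. Its brightest probe set, 200829_x_at, stood at 11.07, 11.09 and 11.06 in GM and at 11.04, 10.89 and 10.90 in HFM, a change of -0.13. The next, 200828_s_at, did not pass at -0.02. The probe set 228157_at stood at 6.10, 5.98 and 6.04 in GM and at 7.88, 7.87 and 7.78 in HFM, a rise of 1.80 ± 0.05 (SE, limma over all probe sets, adjusted p = 2.7e-09), and 231848_x_at and 1556035_s_at rose by 1.76 and 1.94. The gene is therefore called lower by the rule of the highest mean, and stands at 0.85 with the mean of its probe sets and at 1.80 without the _s_at and _x_at types. The call of -0.13 was lost when any 1 of the 6 arrays at 12 hours was left out, HFM replicate 1 excepted, and without GM replicate 2 at 24 hours, with changes between -0.14 and -0.11.

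Other genes had the same shape. RPL37A, a ribosomal protein, had its brightest probe set at 13.71, 13.68 and 13.69 in GM and 13.68, 13.66 and 13.67 in HFM, while 213459_at rose by 1.33 and 214041_x_at fell by 0.62. GART, a purine synthesis enzyme, had 3 bright probe sets between -0.09 and -0.04 that did not pass and a dimmer 230097_at that rose by 1.54. Among its other dimmer probe sets 244822_at rose by 1.00, while 230766_at and 217445_s_at fell by 0.37 and 0.24. NOL3, an inhibitor of cell death, fell on 3 probe sets, by 0.44 on the brightest, and rose by 1.52 on 1558738_at. Its mean over probe sets was 0.14 and did not pass (limma adjusted p = 0.088).

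DIDO1, a chromatin reader, went the other way round, with 3 probe sets up by 0.70, 0.55 and 0.56 and 227335_at at 6.91, 6.95 and 6.77 in GM and 5.73, 5.35 and 5.35 in HFM, a fall of 1.40, and the mean of its probe sets did not pass (0.10, adjusted p = 0.15). In SCAF11, a factor linked to splicing, 6 of 7 probe sets rose and 235579_at fell by 0.63. RASAL2, a regulator of RAS, rose by 0.74 on its brightest and fell by 0.57 on 219026_s_at, and RPAIN rose by 0.27 on its brightest and by 1.43 on 1556088_at, with 216961_s_at down at -0.43. The annotation used here does not place probe sets within transcripts, so which transcript form each detects was not analysed here.

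**Figure D5:**
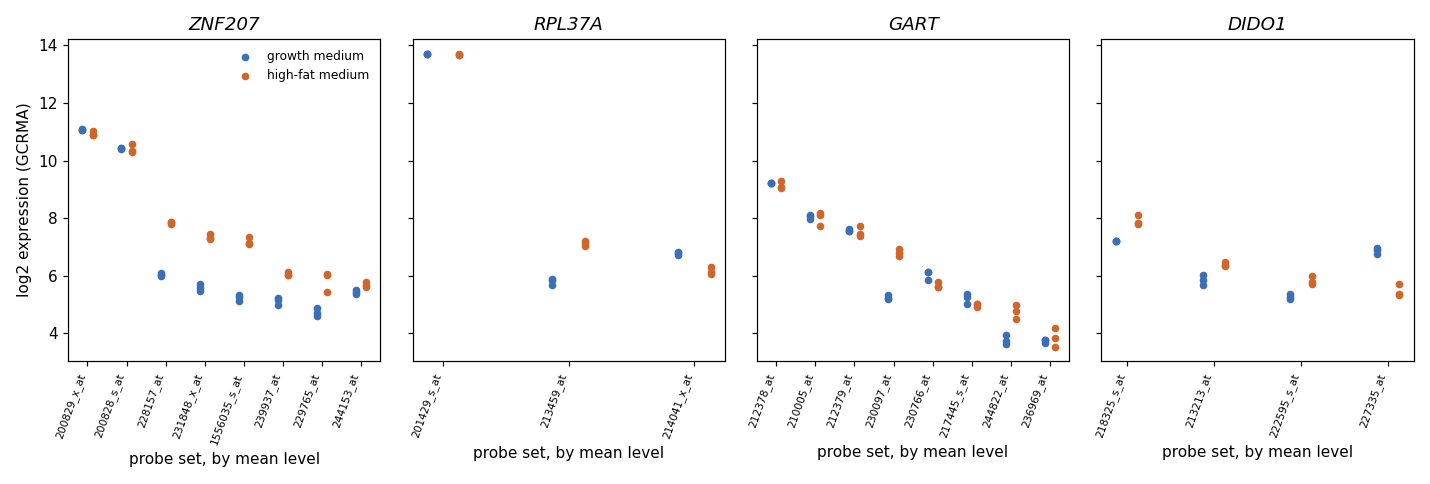
Log2 level of every tested probe set of ZNF207, RPL37A, GART and DIDO1 on the 6 arrays at 12 hours, ordered by mean level, with GM in blue and HFM in orange. Bright probe sets of the first 3 genes overlap or nearly overlap between media, and dimmer ones lie up to 1.94 apart.

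The growth medium arrays at 24 hours give a second reference for these levels. A comparison of them with GM at 12 hours would share those 3 arrays, so the levels are given side by side with no test. IL6 averaged 8.88 in GM at 12 hours, 7.03 in HFM at 12 hours and 8.23 in GM at 24 hours, so its HFM level lay below both. TXNIP averaged 8.03, 9.21 and 8.78, STARD4 7.28, 8.89 and 8.66, and INSIG1 7.73, 9.33 and 8.67, each highest of the 3 in HFM at 12 hours. DUSP4 averaged 8.10, 6.15 and 7.14, lowest in HFM. For other genes GM at 24 hours lay within 0.1 of the HFM level at 12 hours or past it: CENPE averaged 6.08, 7.52 and 8.35, ESF1 7.21, 8.66 and 8.97, CDT1 9.10, 7.99 and 8.03, and VMP1 5.28, 7.11 and 7.10. SLC2A3 averaged 6.88 and 7.08 in GM at the 2 times against 8.02 in HFM. The effect of HFM itself differed between 12 and 24 hours in 6931 genes (52.8%) by a limma test of that difference.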

How the data were processed

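Expression was measured on Affymetrix arrays from total RNA as biotin-labelled cRNA. The deposited values are log2 expression per probe set, and the submitters' processing notes name GCRMA as the authors' method. GCRMA corrects background with probe sequence and normalises arrays to each other, so low levels and shared shifts depend on it. The platform annotation gave 1 symbol for 41097 of 54675 probe sets, several for 1801 and none for 11777, and only the first kind was named. Entrez identifiers of 41043 were matched to RefSeq, and 0 symbols changed.

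A model with 4 group means was fitted to all 12 arrays (8 residual degrees of freedom) with limma 3.58.1 in R 4.3.3 (lmFit, eBayes). A gene was called at an adjusted p under 0.05 (Benjamini-Hochberg over 13130 genes). Probe sets were fitted apart and adjusted over 24649. The fit was run on simulated data with independent noise and few changed genes. These data differ from that setting, so that run does not bear on the number of calls. The number of arrays limits the precision.

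The comparison, 57 gene lists and the rule for named genes were chosen with earlier results of these data known. The rule took the 10 largest rises and 10 largest falls called on every tested probe set, up to 4 called members and the brightest tested uncalled member of each list, the 8 genes with the widest opposite probe sets, and a short list of genes. Lists are described by counts and medians without a set test, and some share members. Some members of lists are not reported here. Plots used matplotlib 3.10.9 under Python 3.11.15.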

Additional observations from a re-analysis of the deposited data

Results flagged for a closer look

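The effect of HFM differed between 12 and 24 hours in 6931 of 13130 genes (52.8%) in a limma test of the difference itself with Benjamini-Hochberg adjustment. Of the genes described above, CXCL8 differed by 2.34 ± 0.12 (SE) on the log2 scale, from a fall of 1.43 at 12 hours to a rise of 0.90 at 24 hours. DUSP4 and DUSP6, which fell at 12 hours, differed by 1.44 ± 0.15 and 1.44 ± 0.12, and DUSP6 stood at 0.03 at 24 hours. CXCL1 differed by 0.62 ± 0.07 and was lower at both times. DDIT3 differed by 2.09 ± 0.13, TXNIP by 1.96 ± 0.10, HMGCS1 by 1.33 ± 0.12 and INSIG1 by 1.02 ± 0.14, all with the larger rise at 24 hours. IL6, STARD4 and CLK1 did not pass this test (adjusted p = 0.22, 0.20 and 0.76), which does not show that their effects were equal.

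Probe sets with no gene symbol gave a signal outside the genes described above. Of 3914 tested, 1598 (40.8%) were called higher and 697 (17.8%) lower in HFM at 12 hours, against 32.3% and 26.8% of 24643 probe sets with 1 symbol in the same fit. Of the 3914, 344 (8.79%) rose by at least 2-fold and 3 fell by at least 2-fold. The transcripts they detect are not named here.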

How the results depend on the processing

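With 3 arrays a group, precision is limited and dim genes depend on the background correction. Counts stayed within 1.5 times under the other filters, centring, a robust trended eBayes and fitting 6 arrays, apart from those given here. Averaging all probe sets of each gene, tested or not, left 155 genes changed by at least 2-fold, 134 of them higher. Testing every probe set called 14665 (8000 higher, 6665 lower), 785 by at least 2-fold (728 and 57), and 12989 that differed between times. Repeated quantile normalisation gave 49 genes at least 2-fold lower, and the hybridisation control term 94, of 449 at least 2-fold. A 1.2-fold minimum (treat) called 2976 genes, 1871 higher and 1105 lower, and 3466 that differed between times. Genes with probe sets called both ways numbered 227 with a filter at log2 6, 229 without _s_at and _x_at probe sets, 254 with only 6 arrays, 710 with the control term and 27 with treat, and genes with all called alike 1107 without those types and 555 with treat. Of the called genes, 46.6% were higher, against 37.7% after quantile normalisation and 55.3% with the control term.

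With each array left out in turn, 7137 to 8968 genes were called, 3473 to 3952 higher and 3653 to 5016 lower, 280 to 304 by at least 2-fold (251 to 275 higher, 27 to 49 lower). All probe sets were called alike in 1644 to 2423 genes and both ways in 277 to 485, and 6192 to 8152 genes differed between times. The highest counts of calls, of falls and of both ways came without HFM replicate 1. A replicate block gave 8267 calls, 3846 higher and 4421 lower, although the samples share only a number: deviations of same-numbered GM and HFM arrays correlated at -0.06, 0.13 and -0.17.

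Of 291 named genes, ZNF207 turned to 0.85 and NOL3 to 0.14 with the mean of probe sets, and ZNF207 to 1.80, YARS1 to 0.13 and SLC39A3 to 0.11 without _s_at and _x_at probe sets, where another probe set was used. Only ZNF207 was called in the new direction, and NOL3, YARS1 and SLC39A3 did not pass (limma adjusted p = 0.088, 0.44 and 0.43). The control term, with which HFM is compared with GM through 1 array, turned the balance of proteasome subunits to 15 higher and 3 lower, of tRNA synthetases to 8 and 3, of replication genes to 12 and 9, of NRF2 and thioredoxin genes to 10 and 8 and of initiation factors to 12 and 9. Without _s_at and _x_at probe sets, which leaves fewer genes, the CHOP and ATF4 arm turned to 3 higher and 4 lower, initiation factors to 11 and 4, and PPAR regulated genes to 3 and 2. Centring or quantile normalisation turned TGF-beta genes to 6 and 10 or 6 and 11 and fatty acid uptake to 4 and 5 or 3 and 5, and quantile normalisation turned glucose genes to 10 and 11.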
